A study of Homo sapiens with 9 samples.

Results

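The antigen receptor loci are the regions of the genome that lymphocytes cut and rejoin to build antibodies and T cell receptors. Peaks of ZNF143, CTCF and RAD21 in them were collected in HEC-1-B, a human uterine adenocarcinoma line that is not of lymphoid origin. The members are all peaks that overlap 5 fixed regions of the human build hg19. These were the immunoglobulin heavy chain locus IGH (chr14:106050000-107290000), the kappa light chain locus IGK (chr2:89150000-90280000), the lambda light chain locus IGL (chr22:22380000-23270000), the T cell receptor alpha and delta locus TRA/TRD (chr14:22090000-23022000) and the beta locus TRB (chr7:141998000-142512000). They held 1739 of the 354101 peaks on chromosomes 1 to 22 and X. Merged wherever they overlapped by at least 1 bp, these peaks gave 362 of 91146 sites, with 105 in IGH, 92 in IGK, 75 in IGL, 53 in TRA/TRD and 37 in TRB.

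The assay was ChIP-nexus, in which exonuclease digestion stops where a crosslinked protein protects the DNA. Wild-type HEC-1-B cells had 1 library each for CTCF, RAD21 and ZNF143, and ZNF143 knockout cells had 1 each for CTCF and RAD21. In CTCF-AID cells, CTCF carries an auxin-inducible degron, a tag through which TiR1 has the protein destroyed when auxin (IAA, 500 µM in the labels) is added. These cells had 1 library each for CTCF and ZNF143 at 0 h and at 24 h of auxin. A ZNF143 library of the knockout cells and RAD21 libraries of the CTCF-AID cells were not analysed here. The knockout and the degradation of CTCF were taken from the labels, and whether each engineered line is a single clone is not given in the sources used here. The lists hold no expression values, so the labelled cell type was not checked against marker genes. With 1 library per group there was no replicate spread and no significance test. Intervals are exact (Clopper-Pearson) 95% binomial intervals over peaks and cover counting error only.

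In lymphocyte precursors, V(D)J recombination joins a variable (V) segment to joining (J) and, in IGH, TRB and TRD, diversity (D) segments, next to the constant (C) genes. CTCF is the zinc finger protein that binds DNA at the borders of chromatin loops, and RAD21 is a subunit of cohesin, the ring complex that extrudes loops until it meets CTCF. These loci are known for many CTCF sites among their V segments, where looping brings distant V segments to the recombination centre. ZNF143 is a zinc finger protein known mainly from promoters, and the study asked how its deletion bears on looping and on the placement of CTCF and cohesin. RefSeq (assembly GRCh38.p14, used for names only) lists 127 V entries at IGH, of which 79 are pseudogenes, 76 at IGK, 73 at IGL, 57 at TRA/TRD and 61 at TRB. It also places other coding genes among the segments. They are VPREB1, ZNF280B, ZNF280A, PRAME, GGTLC2 and IGLL5 at IGL, the trypsinogen genes PRSS1 and PRSS2 at TRB, and the olfactory receptor genes OR10G2, OR4E2 and OR4E1 at TRA/TRD, with none at IGH or IGK. Positions of single segments on hg19 were not analysed here.

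The whole lists ranged from 13865 peaks for CTCF at 24 h to 63420 for CTCF in the knockout. Their estimated background depth ranged from 3.89 reads per kb for CTCF at 24 h to 26.2 for RAD21 in the knockout. Peaks of the knockout lists reached down to a −log10 q of 5.00 and those of the other lists to 3.02 or less, so thresholds were unequal. The signal of a peak is the authors' fold enrichment over local background at its summit, and it was read only within its own list. In each comparison the share over the whole list stands beside the loci as their background.

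**Figure D1:**
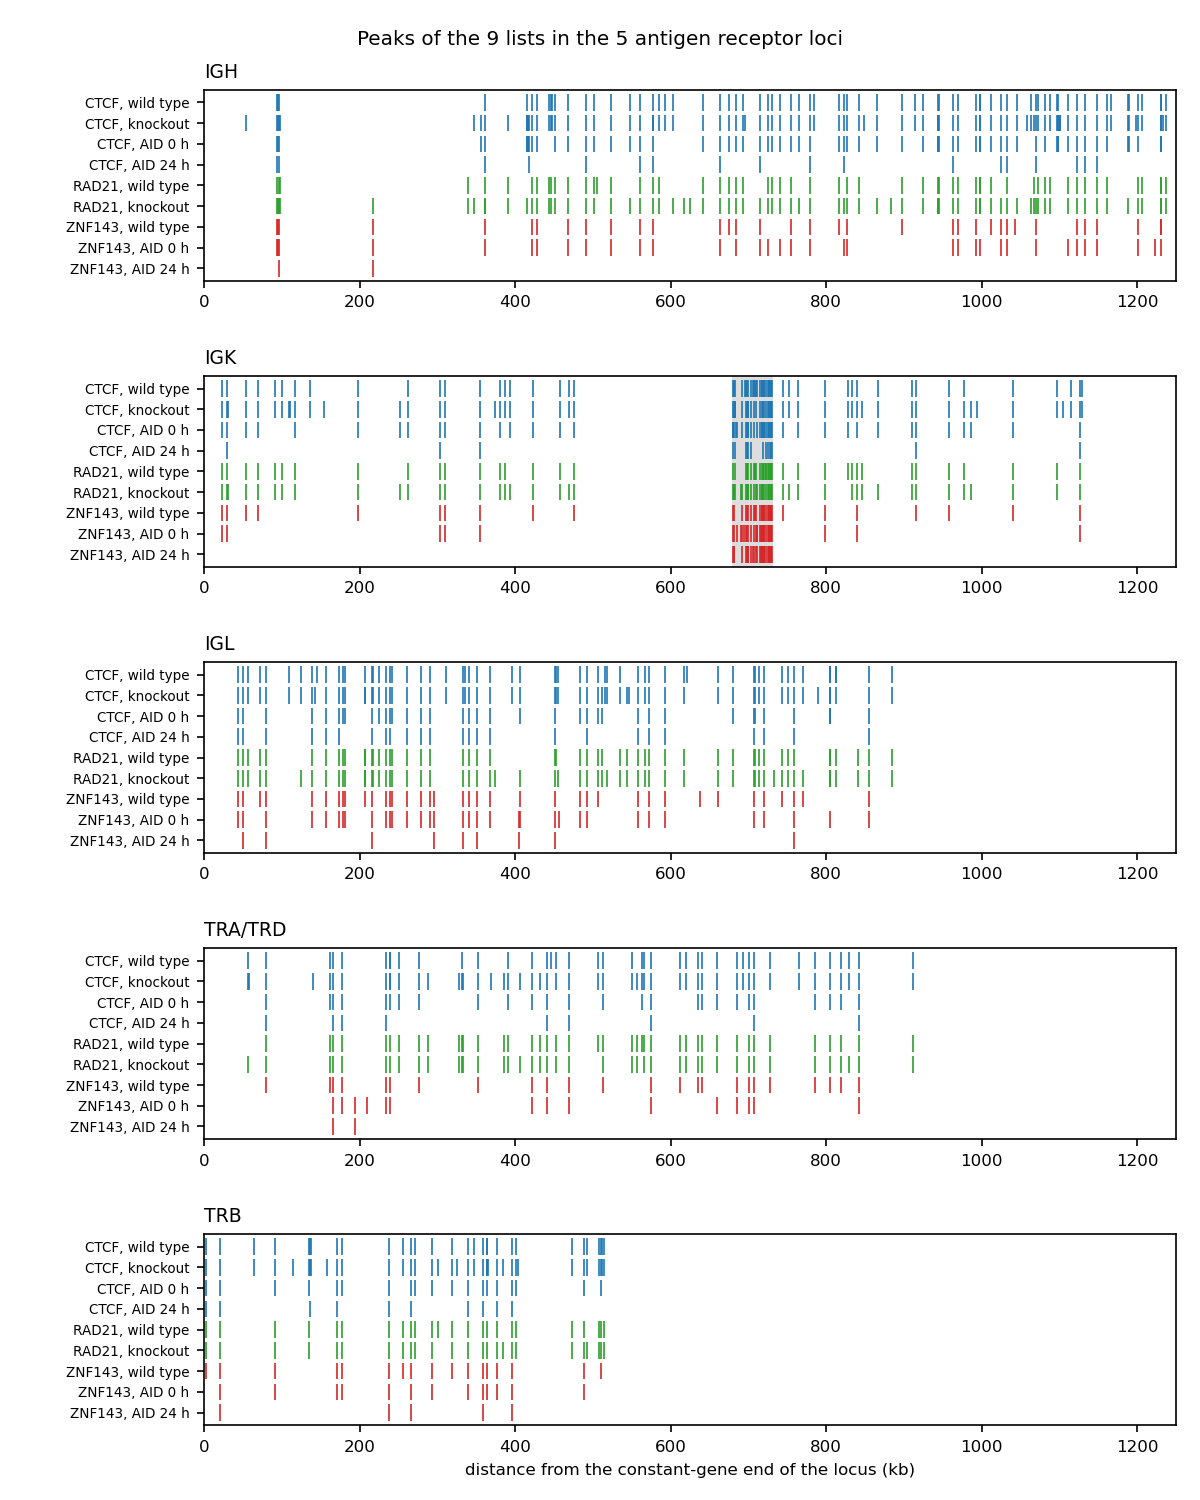
Peaks in the 5 loci. The horizontal axis is distance in kb from the constant-gene end of each locus, each row is 1 list, each line is 1 merged site with a peak in that list (blue CTCF, green RAD21, red ZNF143), and the grey band is the dense run of IGK. The last row of IGH holds 2 sites, and in IGK the last row holds peaks only in the band.

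Results for IGK rested in part on a run of 45 sites within 49.5 kb, at chr2:89830467-89879978, between both arms of the locus. Sites in it followed each other at less than 10 kb, and the next longest such run, in IGH, had 12 sites. Peaks of every antibody and every condition fell there. Of the 45 sites, 10 were in all 9 lists, against 14 of the other 317 sites of the 5 loci and 5.58% of all sites. The run held 30 of the 67 wild-type CTCF peaks of IGK, 26 of the 43 wild-type ZNF143 peaks, and all 33 ZNF143 peaks at 24 h.

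The peaks of the run also differed from others in shape and in local background, the number of reads that the peak caller expected at the summit. Their median local background was 5.51 to 16.4 times the median of their list, and it exceeded the local background of at least 97.3% of the peaks of every list. In the wild-type CTCF list the local background in the run was 1.06 to 7.16 reads, with a median of 4.24, against a median of 0.289 in the rest of IGK. The median width of these CTCF peaks was 40.5 bp, against 90 bp over the list, and their median signal was 6.63 against 15.4 in the rest of IGK. The signal was lower although the median summit count was higher, at 28.5 reads against 19. The part of the high local background in these calls was not tested, and every result below is given without the run unless it is named.

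**Figure D2:**
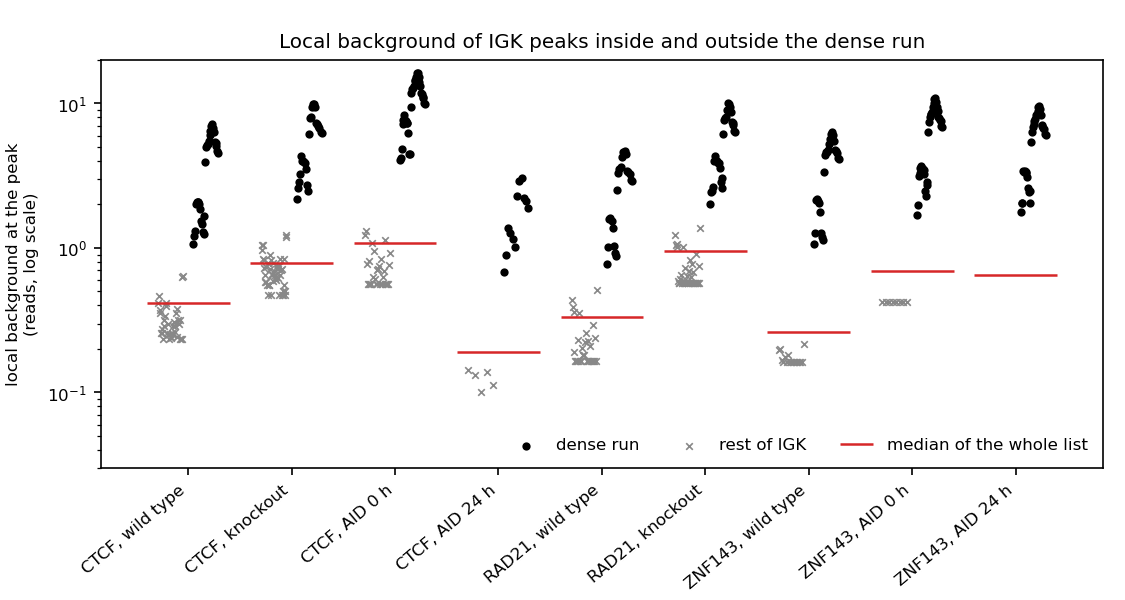
Local background of IGK peaks in the 9 lists, in reads on a log axis. Black points are peaks of the dense run, grey crosses are peaks in the rest of IGK, and red lines are the medians of the whole lists. In all 9 lists the points of the run lie above the red line, and for ZNF143 at 24 h the rest of IGK has no peak.

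CTCF peaks were crowded in all 5 loci of these uterine cells. The wild-type CTCF list held 60.5 peaks per Mb in IGH, 69.7 in IGL, 45.1 in TRA/TRD, 58.4 in TRB and 34.2 in IGK, against 18.0 per Mb over the chromosomes. These densities were 3.37, 3.88, 2.51, 3.25 and 1.91 times the genome-wide density in the same order. Lengths of loci, bins and chromosomes included any bases that hg19 leaves unsequenced, which were not counted here. Of 2940 bins of 1 Mb, 0.476% had as many wild-type CTCF peaks per Mb as IGH, 0.238% as many as IGL, 0.612% as many as TRB, 2.89% as many as TRA/TRD and 8.03% as many as IGK. The bins were not matched in length to the loci, which ranged from 0.514 Mb in TRB to 1.24 Mb in IGH. The loci themselves were not taken out of the bins. Neighbouring wild-type CTCF peaks lay a median 10.4 kb apart in IGH and 10.6 kb in IGL, against 27.4 kb over the genome. The median was 12.6 kb in TRB, 15.8 kb in TRA/TRD and 19.0 kb in IGK.

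Wild-type RAD21 and ZNF143 peaks were also denser than over the genome, but less so than CTCF in most loci. Wild-type RAD21 density ranged from 1.73 times the genome-wide density in IGK to 3.59 times in IGL. Wild-type ZNF143 density ranged from 1.26 times in IGK to 3.43 times in IGL. The share of 1 Mb bins with as many wild-type ZNF143 peaks per Mb ranged from 2.01% for IGL to 27.3% for IGK. For wild-type RAD21 it ranged from 0.238% for IGL to 11.5% for IGK. At 0 h ZNF143 in IGK was at 0.633 times the genome-wide density. In TRA/TRD alone RAD21, at 2.65 times, stood above CTCF. Outside the loci the density varied by side, with any unsequenced bases of hg19 again included in the lengths. The 500 kb below IGK held 22 wild-type CTCF peaks per Mb and the 500 kb above it 32, whereas the 500 kb above TRA/TRD held 50 per Mb, more than the locus itself. Wild-type RAD21 was at 52 per Mb in the 500 kb below IGH against 46.8 in the locus, and at 50 above TRA/TRD. Wild-type ZNF143 was denser beside some loci than in them, at 46 per Mb below IGH against 29.0 inside, 28 above IGK against 15.7 and 42 above TRA/TRD against 25.8.

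**Figure D3:**
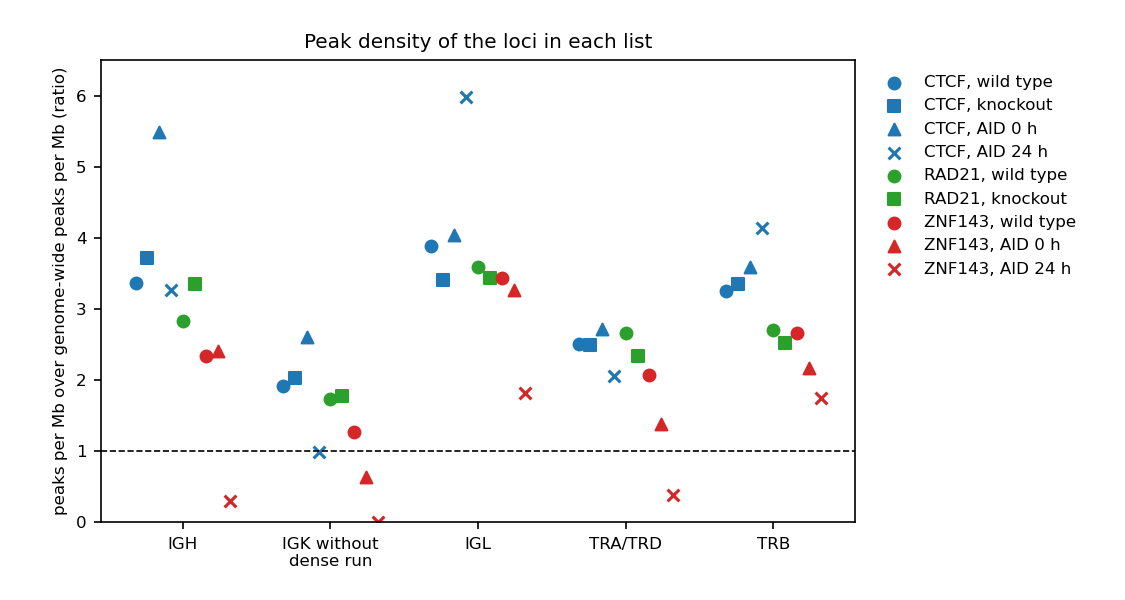
Peaks per Mb in each locus divided by peaks per Mb over chromosomes 1 to 22 and X in the same list (ratio, linear axis), with IGK shown without the dense run. Colours are antibodies, symbols are conditions and the dashed line is a ratio of 1. ZNF143 at 24 h falls below 1 in IGH, IGK and TRA/TRD and stays at 1.82 in IGL and 1.75 in TRB.

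The sites were spread unevenly along IGH. Cut into 3 equal parts of 413.3 kb, IGH had 4 wild-type CTCF peaks in the part at the constant-gene end, 34 in the middle and 37 in the part farthest from the constant genes. Within the first part, 3 CTCF sites lay within 3 kb. They were chr14:106143976-106144157 (wild-type CTCF signal 19.2), chr14:106145493-106145594 (15.4) and chr14:106146556-106146726 (17.5). The outer pair had wild-type RAD21 signals of 20.5 and 21.3, and the middle site had no wild-type RAD21 peak. Next to this group came the longest stretches of IGH without a peak in any list, of 120.3 kb and 121.7 kb, which were parted by a single site of ZNF143 described below.

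The other loci also had long empty stretches. IGK had none of the 9 lists' peaks over 203.9 kb below the dense run, at chr2:89626558-89830466. TRA/TRD had 70.0 kb without a peak at the end far from the constant genes, and its last 56.2 kb at the constant-gene end were empty too. The longest empty stretch was 69.1 kb in TRB and 44.4 kb in IGL. The share of these stretches in which reads can be placed uniquely was not analysed here. No hg19 genome was used, so bases that the build leaves unsequenced were not told apart from sequence without peaks.

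The CTCF site of highest signal in the whole wild-type list lay in IGH. At chr14:107183260-107183411 the wild-type CTCF signal was 33.8, rank 1 of 52982 peaks, with 49 reads at the summit. The rank is by fold over local background and not by reads. Summit counts of that list had a ceiling of 54, which 135 peaks reached. CTCF was rank 13 there in the knockout, with a signal of 28.5. Wild-type RAD21 at this site was only rank 21016, with a signal of 15.9, and wild-type ZNF143 had a signal of 16.9. The highest CTCF site of IGL, chr22:22777037-22777261, had a signal of 29.8 and that of IGK, chr2:89504720-89504914, one of 27.6. The highest of TRA/TRD, chr14:22179654-22179928, had 26.5 and that of TRB, chr7:142491123-142491555, had 26.4. The highest RAD21 sites were chr14:106410854-106411090 in IGH (25.8), chr2:90276848-90277047 in IGK (25.9), chr22:23226195-23226438 in IGL (25.1), chr14:22942045-22942272 in TRA/TRD (23.3) and chr7:142246206-142246450 in TRB (25.2). The site of highest CTCF and the site of highest RAD21 differed in each of the 5 loci.

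The outermost sites with CTCF in any list were of unequal strength at both ends. In IGK the outermost site at the constant-gene end, chr2:89173627-89173917, was strong, with wild-type signals of 22.6 for CTCF and 25.0 for RAD21. In TRB the corresponding site, chr7:142508941-142509138, lay 2.9 kb from the end and had 16.5 and 16.2. In IGL it was the highest RAD21 site of the locus, named above. In TRA/TRD it was chr14:22965736-22965821, with a wild-type CTCF signal of 7.30 and no wild-type RAD21 peak. In IGH it was chr14:106103817-106103855, present in the knockout CTCF list alone at 10.9. At the far end the outermost sites had wild-type CTCF signals of 10.3 in IGH, 7.32 in IGK, 10.5 in IGL, 13.0 in TRA/TRD and 14.4 in TRB.

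With all peaks used, cohesin lay on CTCF in these loci about as often as elsewhere. Of 246 wild-type CTCF peaks, 189 overlapped a wild-type RAD21 peak (76.8%, 71.0 to 82.0), against 76.4% of all CTCF peaks. By locus, the count was 51 of 75 in IGH, 30 of 37 in IGK, 49 of 62 in IGL, 36 of 42 in TRA/TRD and 23 of 30 in TRB. Conversely 187 of 206 RAD21 peaks lay on CTCF (90.8%, 86.0 to 94.4), against 82.8% over the list. Among CTCF peaks at or above the list's median signal, 138 of 146 had RAD21 (94.5%, 89.5 to 97.6), against 97.6%. With each list cut to its stronger 50%, RAD21 included, the match with the genome was lost, at 80 of 146 (54.8%, 46.4 to 63.0) against 78.4%.

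The 8 strong CTCF peaks without RAD21 were 5 of 42 in IGH, 2 of 23 in IGK and 1 of 41 in IGL, with none of 23 in TRA/TRD or of 17 in TRB. All 8 were found again in the knockout and at 0 h. The strongest were chr22:22863131-22863277 in IGL, with a signal of 26.9, and chr14:107074539-107074696 in IGH, with 23.8. Sites of 300 bp or more numbered 11 of 317 (3.47%, 1.74 to 6.12), against 4.36% of all sites. IGH had 6 of them among its 105 sites. Of those 6, 5 had wild-type CTCF without wild-type RAD21, against 77 of 3971 sites of that width over the chromosomes. Some of the 5 were the strong peaks just counted. The widest, chr14:106598405-106599058, spanned 654 bp, with CTCF at 12.6 in wild type, 15.4 in the knockout and 15.0 at 0 h. The 3 sites of that width in IGL all had RAD21.

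A tight group of CTCF peaks in IGH appeared chiefly in a pair of lists. At chr14:106465496-106467625, 8 sites stood within 2130 bp, against at most 4 in any other window of 3000 bp outside the dense run. It was singled out after its values were seen. CTCF had a peak at all 8 at 0 h, at 6 in the knockout, at 1 in wild type and at 1 at 24 h. No ZNF143 list had a peak in the group and RAD21 had peaks at 1 site, in the knockout. The median local background of these CTCF peaks was 4.58 reads at 0 h and 2.88 in the knockout, above list medians of 1.09 and 0.788, and its part in the calls was not tested. Unlike the dense run, the group was kept in all counts of IGH and of the 5 loci.

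ZNF143 in these loci was almost always on CTCF. Of 132 wild-type ZNF143 peaks, 128 overlapped wild-type CTCF (97.0%, 92.4 to 99.2), against 73.1% of all ZNF143 peaks. By locus it was 34 of 36 in IGH, 17 of 17 in IGK, 36 of 38 in IGL, 24 of 24 in TRA/TRD and 17 of 17 in TRB. In the dense run it was 26 of 26. With RAD21 the overlap was 121 of 132 (91.7%, 85.6 to 95.8), against 72.9%. Where overlap had to cover at least 50% of both peaks, ZNF143 on CTCF was 65 of 132 (49.2%, 40.4 to 58.1) against 44.1%. That interval contains the list's share, but the rule also depends on peak width. Median widths in the loci were 59 bp for ZNF143 and 96.5 bp for CTCF, against 66 and 90 bp over the lists. With summits within 50 bp the difference stayed, at 93.2% (87.5 to 96.8) against 71.5%. Seen from CTCF the loci were ordinary, since 127 of 246 CTCF peaks carried ZNF143 (51.6%, 45.2 to 58.0), against 50.6%.

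In merged sites the same pattern showed as a near absence of ZNF143 on its own. All 3 wild-type proteins shared 121 of 317 sites (38.2%, 32.8 to 43.8), against 28.6% of all sites. ZNF143 in any list with CTCF in none was found at 9 of 317 sites (2.84%, 1.31 to 5.32), against 18.2%. CTCF was in at least 1 list at 299 of 317 sites (94.3%, 91.2 to 96.6), against 73.7%. No site of the loci had RAD21 and ZNF143 without CTCF in wild type, 0 of 317 with an interval up to 1.16%, against 0.768% of all sites.

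The strongest wild-type ZNF143 site of IGH was one of those 9. At chr14:106267633-106267801 the ZNF143 signal was 23.3 in wild type, 26.6 at 0 h and 21.4 at 24 h. No CTCF list had a peak there, and RAD21 had one only in the knockout, with a signal of 7.0. It stood alone between both empty stretches of IGH. The strongest ZNF143 sites of the other loci were on CTCF and RAD21. They were chr2:90276848-90277047 in IGK (17.3), chr22:22990508-22990746 in IGL (20.8), chr14:22314551-22314722 in TRA/TRD (12.7) and chr7:142246206-142246450 in TRB (22.1).

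The remaining 8 ZNF143 sites without CTCF had signals of 11.4 or less in each list. They comprised 2 in IGH, 4 in IGL and 2 in TRA/TRD, and IGK outside the run and TRB had none. The highest among them, chr22:22974029-22974089 in IGL, had ZNF143 signals of 7.4 in wild type, 11.4 at 0 h and 8.1 at 24 h, and its 0 h value lay above that list's median of 10.3. The next, chr14:22827347-22827397 in TRA/TRD, had 9.9 at 0 h and 8.9 at 24 h and no peak in wild type.

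Knockout of ZNF143 was compared with wild type to ask which CTCF and cohesin peaks remain without it. Nearly all did. Of 246 wild-type CTCF peaks, 242 overlapped a knockout CTCF peak (98.4%, 95.9 to 99.6), against 94.0% of the whole list. All 75 in IGH, all 37 in IGK and all 30 in TRB were found again, as were 59 of 62 in IGL and 41 of 42 in TRA/TRD. For RAD21 it was 199 of 206 (96.6%, 93.1 to 98.6), against 92.3%. Under the 50% overlap of both peaks, CTCF was at 88.2% (83.5 to 92.0) against 85.0%, an interval that contains the list's share. In the dense run the shares were lower, with 22 of 30 CTCF peaks and 19 of 23 RAD21 peaks found again. The knockout libraries were deeper than the wild-type ones, at 18.9 against 8.64 background reads per kb for CTCF and 26.2 against 7.82 for RAD21, and the part of depth in these shares was not tested.

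The few wild-type peaks that the knockout lists lacked were weak. The highest CTCF peak of that kind was chr22:22456996-22457041 in IGL, with a signal of 9.03, and the next lay in the dense run at chr2:89859060-89859089, with 8.70. The highest RAD21 peak was at nearly the same place in the run, chr2:89859061-89859087, with 10.4, followed by chr14:22458528-22458564 in TRA/TRD, with 8.50. All 4 were narrow calls of under 50 bp.

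Peaks found in the knockout alone were about as frequent as elsewhere for CTCF, at 57 of 298 (19.1%, 14.8 to 24.1) against 21.6%. For RAD21 they were 43 of 243 (17.7%, 13.1 to 23.1), against 20.9%. These shares depended on the peaks used. In the stronger 50% of each list, with the dense run, RAD21 was at 33.1% (24.9 to 42.1) against 21.4%, and at equal list size CTCF was at 37.5% (27.4 to 48.5) against 32.5% and RAD21 at 10.4% (6.68 to 15.1) against 13.2%. The loci were unequal. IGH had 24 of 99 CTCF and 24 of 80 RAD21 peaks of that kind, whereas IGL had 6 of 65 and 7 of 59, and TRA/TRD had 10 of 50 and 3 of 42. The IGH counts include the tight group described above, where CTCF had peaks at 6 sites in the knockout and at 1 in wild type. The strongest CTCF peaks among them were chr14:22733343-22733420 in TRA/TRD, with a signal of 19.0, and chr2:89402229-89402319 in IGK, with 18.7. The strongest RAD21 peaks were both in IGH, at chr14:106397816-106397911 with 17.1 and at chr14:107094931-107094997 with 13.3.

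**Figure D4:**
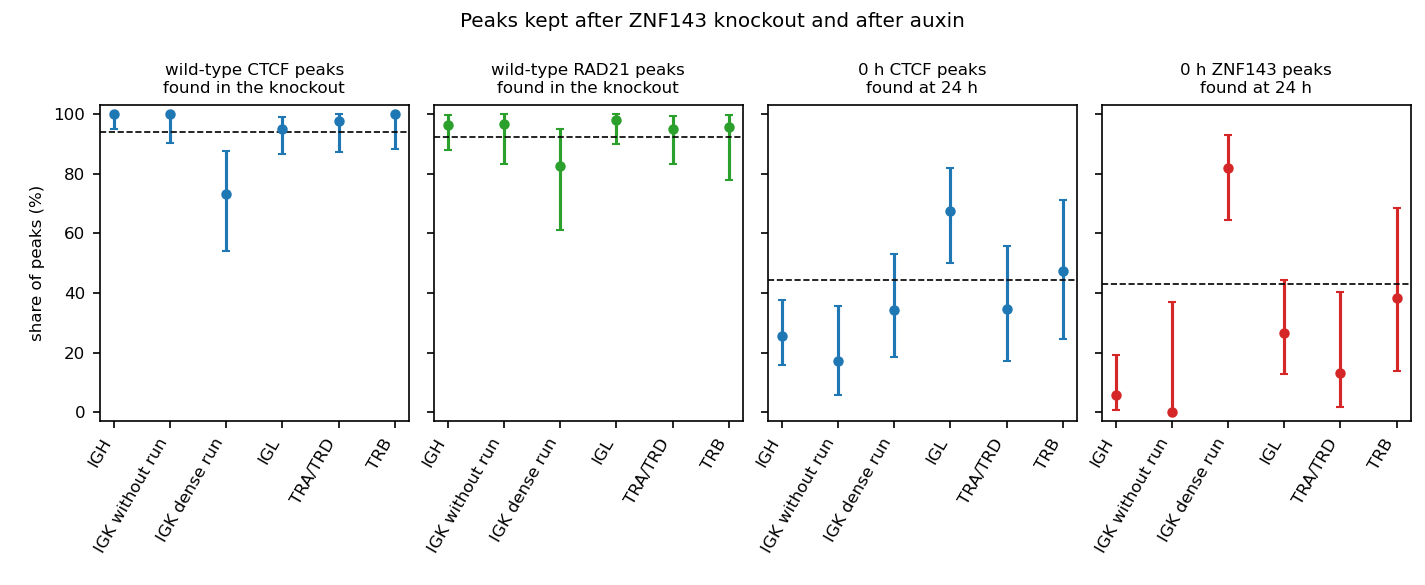
Share of peaks (%) found again in the second list, by locus, with exact 95% binomial intervals as bars. Dashed lines are the shares over the whole lists. The knockout panels lie near 100% outside the dense run, and in the last panel IGH (5.71%) and IGK without the run (0%) lie below the line at 43.2% whereas the dense run (81.8%) lies above it.

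The distance between CTCF and RAD21 summits, a measure of how cohesin sits against CTCF, was short in both genotypes. It was taken at 184 sites with all 4 lists where it was at most 200 bp in both genotypes. The median distance was 14 bp in wild type (12 to 18) and 12 bp in the knockout (10 to 15). The median change per site was -1 bp, with an order-statistic 95% interval of -4 to 1 bp. Over 39182 sites of the genome the medians were 15 and 13 bp. The distance was shorter in the knockout at 97 of the 184 sites and longer at 81. Medians by locus ranged from 12 to 18 bp in wild type and from 9 to 16.5 bp in the knockout.

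The CTCF-AID cells without auxin gave the only other view of sites with CTCF and ZNF143 both labelled as intact. Of 246 wild-type CTCF peaks, 169 were found at 0 h (68.7%, 62.5 to 74.4), against 55.1% over the list. In the stronger 50% of each list the gap was not seen, at 56.2% (47.7 to 64.4) against 55.8%. The share was 61 of 75 in IGH and 27 of 37 in IGK, but 36 of 62 in IGL, 26 of 42 in TRA/TRD and 19 of 30 in TRB. Of 132 wild-type ZNF143 peaks, 93 were found at 0 h (70.5%, 61.9 to 78.1), against 73.1%. These shares measure the difference between lines and libraries with no auxin added.

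After 24 h of auxin, 66 of 181 CTCF peaks remained (36.5%, 29.5 to 43.9), against 44.4% of the 0 h list. This share depended on the setting. Under the 50% overlap of both peaks it was 2.76% against 6.89%, but that rule also depends on peak width. The median width in the loci was 153 bp at 0 h and 57 bp at 24 h. A 24 h peak of median width therefore cannot cover 50% of a 0 h peak of median width. With summits within 50 bp the share was 35.4% against 43.4%. In the stronger 50% of each list it was 20.7% against 41.7%. At equal list size it was 80.0% (69.2 to 88.4) against 80.5%, an interval that contains the share of the list. IGL kept 25 of 37 (67.6%, 50.2 to 82.0). IGH kept 18 of 70 (25.7%, 16.0 to 37.6) and IGK 5 of 29 (17.2%, 5.85 to 35.8). TRA/TRD kept 9 of 26 and TRB 9 of 19, and the intervals of both contained the share of the whole list. The 24 h library was shallower, at 3.89 against 12.8 background reads per kb, and the part of depth in the loss was not tested.

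Whether a CTCF peak was found at 24 h followed its strength at 0 h. Of the peaks at or above the 0 h list's median signal, 65 of 87 were found (74.7%, 64.3 to 83.4), against 77.0% of such peaks in the whole list. Of those below the median, 1 of 94 was found (1.06%, 0.0269 to 5.79), against 11.7%. The 1 found lay at chr14:106467365-106467625, in the tight group of IGH described above. IGH had 45 of its 70 peaks below the median and IGL 10 of 37. The 45 include the 0 h CTCF peaks of that group, where the signal was below the median at all 8 sites. Among peaks at or above the median, 17 of 25 were found in IGH, 25 of 27 in IGL and 5 of 10 in IGK. The strongest 0 h CTCF peaks with none at 24 h were chr2:89989706-89989836 in IGK, with a signal of 21.5, and chr14:106734188-106734362 in IGH, with 21.1. New CTCF peaks at 24 h numbered 1 of 68, against 0.887% of the list. It was chr7:142375352-142375380 in TRB, a peak of 7 reads with a signal of 7.22.

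After auxin the share of ZNF143 peaks found again in these loci was below that of the list as a whole. Of 105 ZNF143 peaks at 0 h, 18 were found at 24 h (17.1%, 10.5 to 25.7), against 43.2%. It was 7.62% (3.35 to 14.5) against 31.1% under the 50% overlap of both peaks and 28.0% (16.2 to 42.5) against 65.2% at equal list size. IGH kept 2 of 35 (5.71%, 0.700 to 19.2) and IGK 0 of 8, whose interval reaches 36.9%. IGL kept 9 of 34, TRA/TRD 2 of 15 and TRB 5 of 13, and only the intervals of IGL and TRB, at 12.9 to 44.4 and 13.9 to 68.4, reached the share of the list. The dense run differed, with 27 of 33 found again (81.8%, 64.5 to 93.0), so that with it the loci together kept 45 of 138 (32.6%, 24.9 to 41.1). Background depth of the ZNF143 libraries was 13.5 reads per kb at 0 h and 12.1 at 24 h. The whole lists held 34531 and 16392 peaks. The part of depth and of enrichment in these shares was not tested.

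The shares were below those of the list among strong and weak ZNF143 peaks. Of ZNF143 peaks at or above the 0 h list's median signal, 14 of 56 were found at 24 h (25.0%, 14.4 to 38.4), against 63.4% of such peaks over the list. Of weaker peaks, 4 of 49 were found (8.16%, 2.27 to 19.6), against 22.9%. The strongest 0 h ZNF143 peaks that were absent at 24 h were in IGH, at chr14:107183294-107183354 with a signal of 21.8 and at chr14:107083081-107083202 with 19.4. The former is the site of the CTCF peak of highest signal described above, where CTCF itself was still called at 24 h, with a signal of 8.14 and 8 reads.

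The shares were also below the list's among peaks on CTCF. At 0 h, 98 of the 105 ZNF143 peaks lay on a 0 h CTCF peak (93.3%, 86.7 to 97.3), against 56.1% of the list. Of those 98, 14 were found at 24 h (14.3%, 8.04 to 22.8), against 31.9%. Where a 24 h CTCF peak also overlapped, ZNF143 was found at 14 of 62 (22.6%, 12.9 to 35.0), against 40.6%. Where it did not, ZNF143 was found at 0 of 36, with an interval up to 9.74%, against 14.5%. Of the 7 ZNF143 peaks without CTCF at 0 h, 4 were found at 24 h (57.1%, 18.4 to 90.1), against 57.6%.

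The 18 ZNF143 peaks at 24 h therefore fell into 2 kinds. A 24 h CTCF peak lay under 14 of them (77.8%, 52.4 to 93.6), against 32.2% of the 24 h list. The other 4 were at sites where no list had CTCF. These were the strong IGH site between the empty stretches, chr22:22864334-22864398 and chr22:22974029-22974089 in IGL, and chr14:22827347-22827397 in TRA/TRD. Of these 18 peaks, 0 were new at 24 h, with an interval up to 18.5%, against 8.10% of the list.

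Where ZNF143 stayed with CTCF, TRB had the highest signals. All 5 of its 24 h ZNF143 peaks were on CTCF and RAD21 sites. At chr7:142246206-142246450 the ZNF143 signal was 22.1 in wild type, 25.1 at 0 h and 13.7 at 24 h, and at chr7:142273781-142274029 it was 18.3, 20.3 and 13.5. The site chr7:142115681-142115940 had 21.5, 21.1 and 12.4, and chr7:142153220-142153451 had 17.7, 18.1 and 12.2. The fifth, chr7:142491123-142491555, had 14.1, 17.3 and 8.09, and it was also the highest CTCF site of TRB in wild type, with CTCF still at 16.3 after 24 h. Signals are ranked within each list, and the 24 h list had a median of 8.88, so 4 of these sites lay above its median and the last below.

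IGL kept 7 ZNF143 peaks on CTCF, all weak at 24 h. Near the constant-gene end, chr22:23219692-23219900 had ZNF143 signals of 18.0 in wild type, 20.6 at 0 h and 8.02 at 24 h, and chr22:23190615-23190883 had 16.8, 17.5 and 7.40. Farther in, chr22:22918887-22919088 had 14.1, 16.4 and 6.66. None of the 9 IGL peaks at 24 h reached the list's median. IGH and TRA/TRD had 1 site each in all 9 lists. These were chr14:106146556-106146726, near the constant genes of IGH, with ZNF143 at 12.7, 14.1 and 8.88, and chr14:22855880-22856128 in TRA/TRD, with 11.6, 12.3 and 5.02.

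In IGK all 3 highest sites that were in all 9 lists belonged to the dense run. The first, chr2:89830467-89830533, had signals of 14.1 for CTCF, 13.6 for RAD21 and 17.0 for ZNF143 in wild type, and of 14.8 for CTCF and 14.1 for ZNF143 at 24 h. The others were chr2:89849709-89849800 and chr2:89853207-89853261, with wild-type CTCF signals of 12.3 and 12.2. Both CTCF and ZNF143 peaks that were new at 24 h were here as well, at 1 of 12 and 6 of 33. Those of highest signal were chr2:89832542-89832567 for CTCF (9.51), and chr2:89831860-89831894 (5.90) and chr2:89855497-89855529 (5.85) for ZNF143.

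IGK outside the run showed a mirrored layout of CTCF sites. Human IGK is known to hold a proximal and a distal V cluster that are inverted near-copies of each other, so reads from one copy can be placed in the other and signals of paired sites are uncertain. The arm near the constant gene had 26 sites and the other arm 21. For 13 pairs of sites, one in each arm, the positions added up to the same sum within 2 kb, whereas the next fullest window of sums held 8 pairs and the fullest window of equal differences 7. CTCF had a peak at both sites in 12 of the 13 pairs in wild type and in 13 in the knockout, and RAD21 in 8 and 10. ZNF143 in wild type had both in 3 pairs and 1 of the 2 in 4.

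Paired sites were of like but not equal strength. Wild-type CTCF was higher in the far arm in 8 of the 12 pairs and in the near arm in 4. The largest wild-type CTCF signal of the pairs, 27.6 at chr2:89504720-89504914, stood opposite 19.4 at chr2:90016163-90016321, where wild-type RAD21 and ZNF143 had peaks only in the near arm. In the opposite sense, chr2:89530881-89531036 had 15.1 and its partner chr2:89989703-89989842 had 22.9. At 0 h ZNF143 had no pair with a peak at both sites, and at 24 h it had no peak in any.

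**Figure D5:**
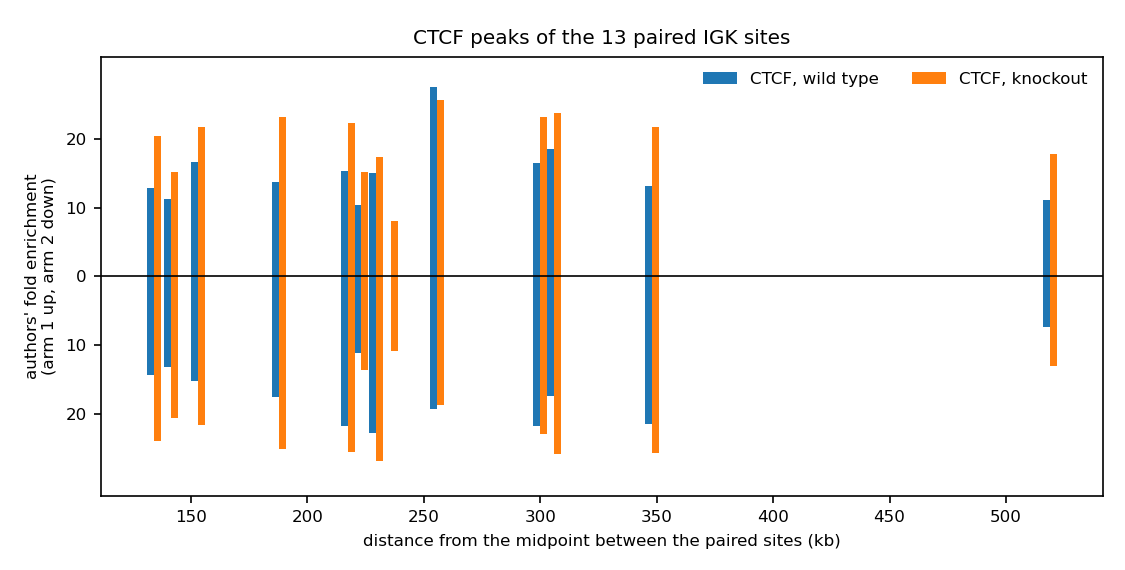
CTCF signal (authors' fold enrichment) at the 13 paired IGK sites, by distance in kb from the midpoint of each pair. Bars of arm 1, nearest the constant gene, point up and bars of arm 2 point down, blue for wild type and orange for the knockout. A pair with an orange bar but no blue one is the pair that wild type lacks.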

How the data were processed

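ChIP-nexus peak lists of 9 libraries were used as deposited. Per the submitters' processing notes, the tools were cutadapt 2.10, Bowtie2 2.3.5.1, SAMtools 1.12, MACS2 2.2.7.1 and deepTools on hg19; settings, filters and pooling are not given in the sources used here. The authors deposited for each peak a score, a signal read as a fold (ratio) over local background, −log10 p and −log10 q, and a summit position. Read totals were not used; depth was estimated from whole summit counts and local backgrounds that gave back the deposited ratio, with −log10 p matched within 0.002, for 100% of peaks.

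Peaks on chromosomes 1 to 22 and X that overlapped a locus were members, and coordinates are 1-based. Sharing meant at least 1 bp of overlap. Named sites are, per locus, the highest wild-type site of each protein, the outermost CTCF sites and up to 3 sites in all 9 lists, and, over the loci, the 2 highest peaks found in 1 list of a comparison alone; others were named after their values were seen. Loci, rules and lists were chosen with earlier results of these data known. No hg19 genome was used, so planned motif and gene-position analyses were not run. The code, in Python 3.11.15 with numpy 2.4.6, pandas 2.3.3 and scipy 1.17.1, missed 0 of 2000 simulated counts and 0 of 648 overlap calls on a test chromosome. Alternatives covered the overlap rule, q, signal, list size, locus borders, each locus and the dense run.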

Additional observations from a re-analysis of the deposited data

How the results depend on the processing

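No paired analysis was possible because each group has 1 library. Of 200 alternative values for 18 results, 154 stayed within the interval (for counts, within 1.5 times) of the reported value and 46 moved. Whether a value changed sides against the whole list's share was not scored. Knockout-only RAD21 with the run did so, from 19.2% against 20.9% to 33.1% against 21.4% in the stronger 50% of each list. Alternatives that leave out the dense run were chosen after seeing the data. The cause of each move was not tested. Shares at reciprocal overlap also depend on peak width, which differed between lists, so they do not measure shared or lost peaks alone.

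Values with the run come first, each with the whole list's share in parentheses. With the stronger 50% of each list, the loci held 773 peaks and 199 sites, and with the lists of an antibody at equal size 919 peaks. At reciprocal overlap of at least 50%, wild-type CTCF on RAD21 was 64.9% (65.6%), ZNF143 on CTCF 55.7% (44.1%) and ZNF143 on RAD21 51.9% (32.5%). CTCF and RAD21 kept in the knockout were 86.6% (85.0%) and 86.5% (81.4%), knockout-only CTCF and RAD21 26.0% (29.0%) and 26.6% (30.0%), wild-type CTCF and ZNF143 found at 0 h 59.1% (43.8%) and 63.9% (60.1%), and CTCF and ZNF143 kept at 24 h 5.63% (6.89%) and 23.9% (31.1%). With the stronger 50%, CTCF on RAD21 was 54.8% (78.4%), ZNF143 on CTCF 90.2% (70.0%) and on RAD21 70.5% (64.8%), knockout-only RAD21 33.1% (21.4%), wild-type CTCF found at 0 h 56.2% (55.8%), and CTCF and ZNF143 kept at 24 h 20.7% (41.7%) and 13.8% (42.0%). At equal list size, CTCF on RAD21 was 97.1% (99.7%), ZNF143 on CTCF 68.5% (55.0%) and on RAD21 96.3% (73.8%), CTCF and RAD21 kept in the knockout 80.9% (67.5%) and 86.5% (87.2%), knockout-only CTCF and RAD21 37.5% (32.5%) and 10.4% (13.2%), and CTCF kept at 24 h 80.0% (80.5%). Knockout-only RAD21 was 14.7% (20.9%) without IGH. CTCF kept in the knockout (94.0%) was 98.1% without IGK and 98.4% without the run. CTCF kept at 24 h was 29.5% (44.4%) without IGL. ZNF143 kept at 24 h (43.2%) was 41.7% without IGH, 18.6% without IGK and 17.1% without the run.

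Without the run, ZNF143 on CTCF was 49.2% at reciprocal overlap (whole list 44.1%) and 75.5% at equal size (55.0%). CTCF kept in the knockout was 88.2% (85.0%) and 80.9% (67.5%). CTCF kept at 24 h was 2.76% (6.89%) and 80.0% (80.5%), 20.7% (41.7%) in the stronger 50%, and 28.5% (44.4%) without IGL. ZNF143 kept at 24 h was 7.62% (31.1%) and 28.0% (65.2%), so its share lay below the whole list's in each of these, whereas CTCF's difference from the list vanished at equal size.

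Each value rests on 1 library per group, and IGK outside the run had only 8 ZNF143 peaks at 0 h. Knockout and 24 h lists differ in depth and threshold from those they were compared with, and copies of segments that resemble each other limit where reads can be placed.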

Other observations

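CTCF sites shared by wild type and knockout were ranked within each list, and the median change in percentile of the signal (knockout minus wild type, per site) differed in sign between loci. At 37 shared sites of IGK outside the dense run it was 21.6, with medians of 50.2 for wild type and 74.8 for the knockout, the latter being higher at 30 of them. At 40 shared sites of TRA/TRD it was 11.8, with medians of 49.5 and 70.1, higher at 32. TRB had -4.68 over 30 sites, with medians of 55.1 and 39.3, lower at 18. IGH had -2.56 over 73 sites, lower at 42, and IGL -1.02 over 59 sites, lower at 33. Over the 5 loci without the run the percentile was higher in the knockout at 131 of 239 sites. For RAD21 it was higher at 138 of 200. These are ranks among 49537 CTCF and 44888 RAD21 sites of 1 library each, with no replicate check. Summit counts had a ceiling in each list. For CTCF it was reached by 1316 of 63420 peaks in the knockout and 135 of 52982 in wild type. For RAD21 it was reached by 6970 of 56861 and 574 of 48906. The part of this ceiling and of depth in the ranks was not tested.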
